A study of Mus musculus with 32 samples.

Results

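The 9 genes described here encode parts of the NF-kappaB system: the subunits Nfkb2, Relb, Nfkb1 and Rela, the inhibitor family members Nfkbia, Nfkbie and Bcl3, the kinase Map3k14 and the receptor Tnfrsf12a. They were listed by symbol for their known place in the canonical and non-canonical branches, with Nfkb2 and Relb set as a pair against Nfkb1 and Rela. The list and the pairs were chosen with earlier results of these data known. All 9 were found among the 55487 gene identifiers of the count table, and all 9 were among the 14955 genes that passed the filter on low counts. Messenger RNA was sequenced from the gastrocnemius, a fast calf muscle, of young male mice at 7 or 28 days after complete spinal cord injury (SCI) or a sham operation. Injured mice received vehicle or boldine, an alkaloid known as a blocker of connexin and pannexin hemichannels, and sham mice received vehicle. Each day has 4 libraries from sham mice, 6 from injured mice on vehicle (SCI vehicle) and 6 from injured mice on boldine (SCI boldine), 32 in all. The labels give no strain, genotype, injury level or batch, and do not say whether each library is 1 animal, so a p-value here reflects only how much these libraries vary, which may be technical.

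In the canonical branch, NF-kappaB dimers such as those of Rela with the processed product of Nfkb1 are held in the cytoplasm by IkappaB proteins and are freed when the IkappaB kinase complex marks these inhibitors for degradation. In the non-canonical branch, receptors such as Tnfrsf12a, also called Fn14, let the NF-kappaB-inducing kinase NIK, the product of Map3k14, accumulate, and NIK drives the processing of the Nfkb2 precursor to the form that pairs with Relb. Several of these genes are themselves known transcriptional targets of NF-kappaB, and both branches are known for roles in muscle wasting after disuse and denervation. mRNA levels show neither processing nor nuclear entry of the proteins.

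Each library held between 9935424 and 14132960 counts. The gastrocnemius label was checked against 10 muscle-fibre genes, among them Acta1, Ckm and Myh4, whose summed level was 173000 to 233000 CPM (read counts scaled to a common library size) in sham muscle at 7 days. Levels are CPM after edgeR's TMM scaling of library size, and levels of different genes are compared only as CPM per kilobase of exon. A gene was called at a Benjamini-Hochberg adjusted p under 0.05 in edgeR's two-sided quasi-likelihood test, fitted over all 14955 genes. With plain library totals in place of TMM, the median log2 fold change of all genes between SCI vehicle and sham at 7 days was 0.37 instead of -0.02, and members are read against that shift where it matters. In whole muscle, a lower level can come from fewer cells of a type or from less RNA per cell, and these cannot be told apart.

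The promoter windows of the members are shown because several of them carry the letters that NF-kappaB dimers are known to bind. RefSeq windows of 300 bases on GRCm38.p6, from 250 bases before a transcript's start to 50 bases after it, were searched on both strands for the 10-base kappaB consensus. The table held 9 windows of 7 members, and 6 windows of 4 members (Nfkb2, Nfkbia, Nfkbie and Bcl3) had a match. Among all 32851 windows, 4.51% had at least 1 match and 0.554% had 2 or more. The windows of Rela, Map3k14 and Tnfrsf12a had no match to these letters. Matches are in capitals, and each sequence is on the gene's strand, 5′ to 3′.
Nfkb2, first window, chr19:46304487-46304786, plus strand: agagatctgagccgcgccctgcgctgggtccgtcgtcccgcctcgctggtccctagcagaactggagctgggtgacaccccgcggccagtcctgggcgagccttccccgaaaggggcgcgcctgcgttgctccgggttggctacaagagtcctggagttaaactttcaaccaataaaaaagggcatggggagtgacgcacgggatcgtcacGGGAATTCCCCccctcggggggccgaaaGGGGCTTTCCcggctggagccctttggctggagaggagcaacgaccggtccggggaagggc
Nfkb2, second window, chr19:46305445-46305744, plus strand: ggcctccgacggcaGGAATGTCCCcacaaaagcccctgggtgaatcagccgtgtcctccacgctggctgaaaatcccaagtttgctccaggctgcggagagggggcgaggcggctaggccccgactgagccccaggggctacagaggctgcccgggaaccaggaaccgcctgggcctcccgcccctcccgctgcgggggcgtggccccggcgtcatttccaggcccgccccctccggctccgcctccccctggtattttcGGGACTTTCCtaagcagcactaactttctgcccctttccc
Nfkbie, chr17:45555450-45555749, plus strand: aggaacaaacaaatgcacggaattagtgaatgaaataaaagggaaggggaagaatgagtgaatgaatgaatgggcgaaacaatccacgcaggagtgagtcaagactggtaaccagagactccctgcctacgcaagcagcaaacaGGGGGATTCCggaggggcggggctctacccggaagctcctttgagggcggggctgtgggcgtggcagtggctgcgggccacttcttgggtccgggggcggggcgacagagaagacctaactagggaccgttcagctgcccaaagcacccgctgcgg
Nfkbia, chr12:55492598-55492897, minus strand: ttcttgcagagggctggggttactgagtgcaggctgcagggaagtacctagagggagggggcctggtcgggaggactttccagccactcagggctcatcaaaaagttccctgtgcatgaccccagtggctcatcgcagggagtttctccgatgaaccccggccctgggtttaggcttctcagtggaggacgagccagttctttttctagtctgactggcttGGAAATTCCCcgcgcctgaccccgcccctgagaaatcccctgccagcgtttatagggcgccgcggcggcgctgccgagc
Map3k14, chr11:103267352-103267651, minus strand: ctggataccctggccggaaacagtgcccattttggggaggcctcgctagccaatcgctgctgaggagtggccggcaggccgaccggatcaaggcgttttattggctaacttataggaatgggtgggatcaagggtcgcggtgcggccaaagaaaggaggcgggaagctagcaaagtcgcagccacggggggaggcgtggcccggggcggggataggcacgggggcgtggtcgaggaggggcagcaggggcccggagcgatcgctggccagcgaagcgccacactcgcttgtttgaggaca
The first Nfkb2 window held 3 matches, of which 2 overlap, and the nearest ended 2 bases before the start. The second Nfkb2 window held 2 matches, and a further window that overlaps it held 1 of the same matches. In Nfkbie the match lay 106 to 97 bases before the start, and in Nfkbia 29 to 20 bases before it. In Bcl3, whose window is at chr7:19822706-19823005 on the minus strand, the match lay 3 to 12 bases after the start. A match is a stretch of letters and shows no binding.

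At 7 days after SCI with vehicle, the non-canonical subunits rose several-fold while Nfkb1 did not differ from sham in the test, and Rela rose by less. Of the 9 members, 7 were higher than in sham and 2, Nfkb1 and Bcl3, were not called. Over all genes tested, 44.6% were called in this comparison and 21.5% were called higher. In 6 of the 9 members every injured library lay above every sham library, against 14.0% of all genes. The median log2 fold change was 1.07 over the members and -0.02 over all genes. Because the members were chosen with earlier results known, these tallies and those below describe the list and are no test of it. Nfkbie, counted among the 7 and the 6, passed the filter on low counts only through the injured libraries of 7 days.

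Nfkb2 (mm10 chr19:46304320-46312385, plus strand) encodes the precursor that is processed to a subunit of the non-canonical dimer. In sham muscle at 7 days its 4 libraries read 13.8, 9.02, 19.1 and 15.2 CPM. The 6 SCI vehicle libraries read 232, 208, 74.7, 83.2, 216 and 100 CPM, in the order of their numbers. Every injured library was far above every sham library, and libraries 1, 2 and 5 stood about level with each other above the other 3. The log2 fold change was 3.40 ± 0.31 (SE), or 10.6-fold, with an edgeR adjusted p of 1.61e-10.

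Exons of Nfkb2 share 531 bases with AC114539.1 and 299 bases with Psd, both on the opposite strand, and whether counting used the strand is not given in the sources used here. Reads in the shared stretches therefore cannot be assigned to one strand. Counts assigned to Psd averaged 1.47 ± 0.72 CPM (SD, n = 4) in sham and 11.2 ± 6.4 CPM (SD, n = 6) in SCI vehicle at 7 days, and those assigned to AC114539.1 averaged 1.32 ± 0.89 and 7.54 ± 3.43 CPM. Both levels were small beside the 152 ± 73.5 CPM (SD, n = 6) of Nfkb2 in the same injured muscles.

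Relb (chr7:19606217-19629438, minus strand) encodes the partner of the processed Nfkb2 product. Its sham libraries at 7 days were close together, at 11.7, 10.9, 11.1 and 11.2 CPM. The SCI vehicle libraries read 78.2, 71.9, 29.0, 28.4, 70.7 and 36.3 CPM. The groups were well apart, and libraries 1, 2 and 5 were again the highest. Relb rose by a log2 fold change of 2.23 ± 0.25 (SE), or 4.69-fold, with an edgeR adjusted p of 9.08e-09.

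Nfkb1 (chr3:135584655-135691547, minus strand) encodes the precursor of the canonical partner subunit. Its libraries lay at 30.4, 26.8, 28.0 and 23.8 CPM in sham and between 23.4 and 34.2 CPM, with a median of 26.3, in SCI vehicle. The ranges overlapped almost wholly. The log2 difference was 0.01 ± 0.10 (SE), with a 95% interval from -0.18 to 0.21 and an edgeR adjusted p of 0.937, but 0.41 (adjusted p 0.00390) with library totals, close to the shift of all genes under that scaling. Rela (chr19:5637483-5648130, plus strand), which encodes the transactivating canonical subunit, read 17.0, 18.6, 19.0 and 17.0 CPM in sham and 20.6 to 32.7 CPM, with a median of 22.9, in SCI vehicle. Its groups did not overlap, although the gap between them was narrow. Rela rose by a log2 fold change of 0.44 ± 0.13 (SE), with an edgeR adjusted p of 0.00512.

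**Figure D1:**
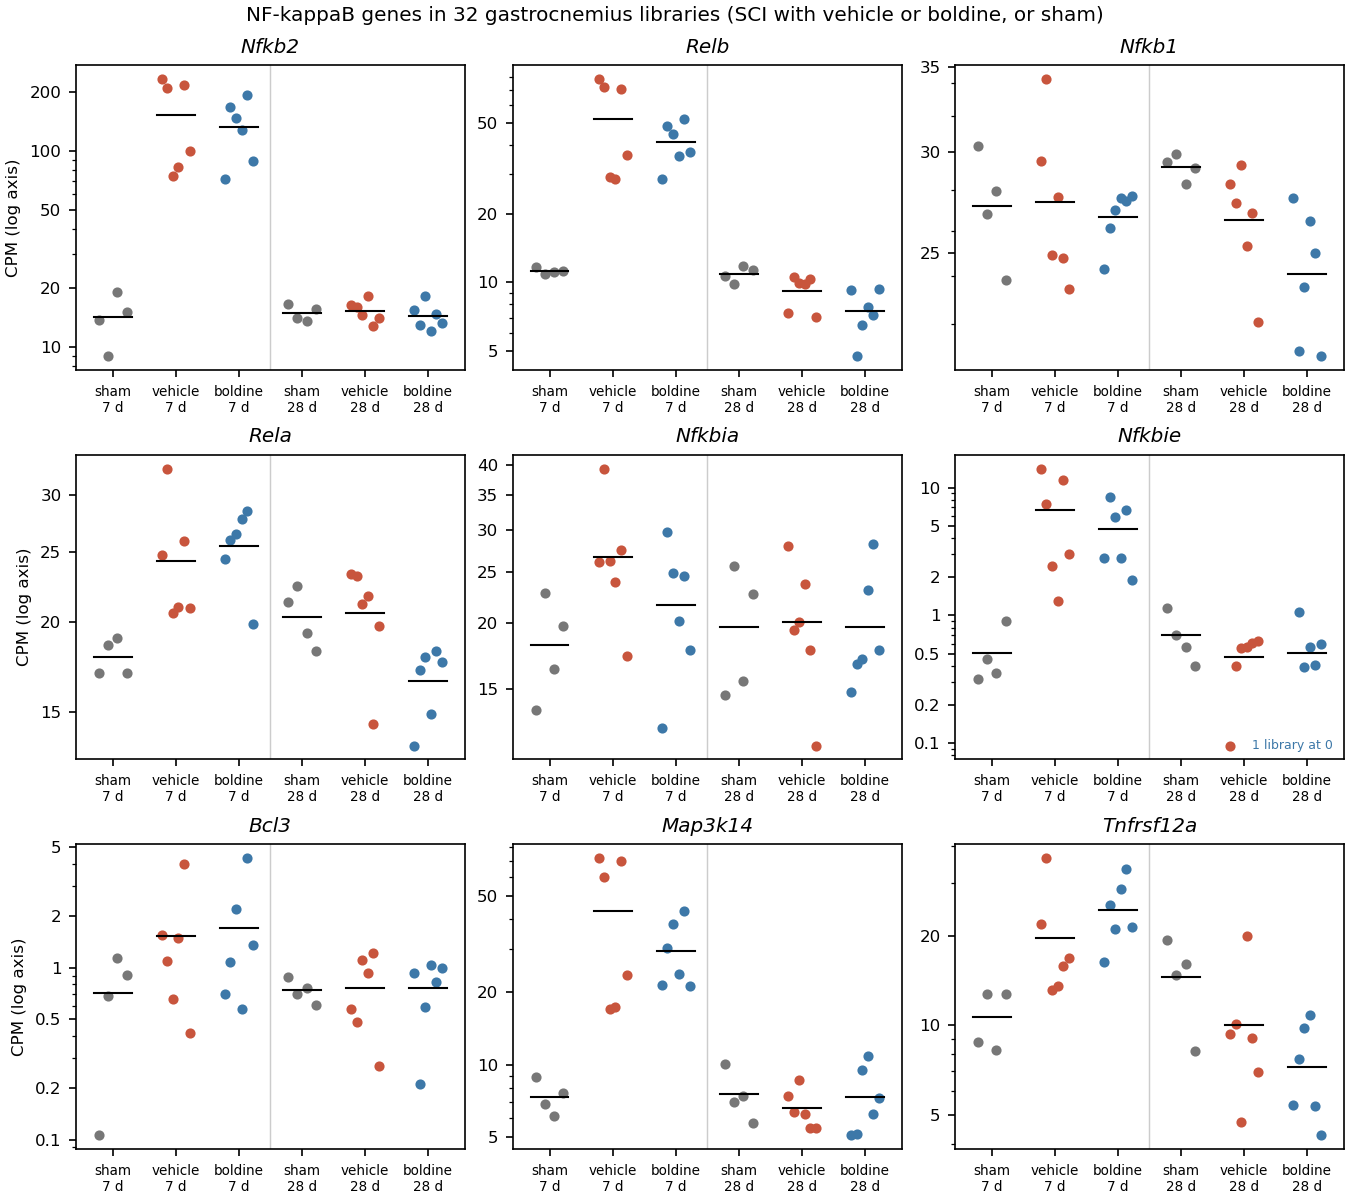
Level of each of the 9 genes in every library, in CPM of TMM-scaled libraries on a log axis, by group (points are libraries, horizontal lines are group means, and 1 library of Nfkbie at 0 is written in). Nfkb2, Relb, Nfkbie and Map3k14 are high in both injured groups at 7 days and back at or below the sham values at 28 days, while Nfkb1 stays between 20.8 and 34.2 CPM throughout.

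Set against each other per kilobase of exon, the subunits changed places at 7 days. The lengths are those of all annotated exons joined, 12061 bases for Nfkb1, 4584 for Nfkb2, 3885 for Relb and 3072 for Rela. A joined length can exceed that of the transcripts present, which were not determined. The order and shares of the genes within a group therefore depend on the lengths used, above all for Nfkb1. In sham muscle, Rela was the highest of the 4 at 5.83 ± 0.35 CPM per kilobase (SD, n = 4), followed by Nfkb2 at 3.11 ± 0.91, Relb at 2.88 ± 0.09 and Nfkb1 at 2.26 ± 0.23. The values of Nfkb2 and Relb differed by less than the spread of Nfkb2. In SCI vehicle muscle the order was Nfkb2 at 33.2 ± 16.0 CPM per kilobase (SD, n = 6), Relb at 13.5 ± 6.1, Rela at 7.91 ± 1.52 and Nfkb1 at 2.27 ± 0.33. Nfkb2 made up 21.9% ± 5.1 of the summed level of the 4 subunits in sham and 56.7% ± 5.1 in SCI vehicle, while the share of Rela was 41.5% ± 3.3 and 15.4% ± 4.5. The share of Relb was nearly level, at 20.5% and 23.4%, and that of Nfkb1 was 16.1% and 4.54%.

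The ratio of Nfkb2 plus Relb to Nfkb1 plus Rela, in CPM per kilobase, does not depend on how the libraries are scaled. Its size, and where it stands against 1, can depend on the exon lengths used. It lay between 0.575 and 0.824 in the 4 sham libraries at 7 days and between 2.71 and 6.73, with a median of 4.11, in the 6 SCI vehicle libraries. In the 6 SCI boldine libraries it lay between 2.30 and 4.79, with a median of 3.64. Every injured library at 7 days was above 1, and every sham library was below it. At 28 days all 16 libraries were below 1, with 0.573 to 0.756 in sham, 0.551 to 0.787 in SCI vehicle and 0.555 to 0.863 in SCI boldine. No test was run on this ratio, since the pairs were chosen with results of these data known. As a difference of mean log2 CPM, without length, the sham and 28-day groups had means from -0.97 to -0.82 and the injured 7-day groups 1.66 and 1.45, the same signs as with the ratio.

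**Figure D2:**
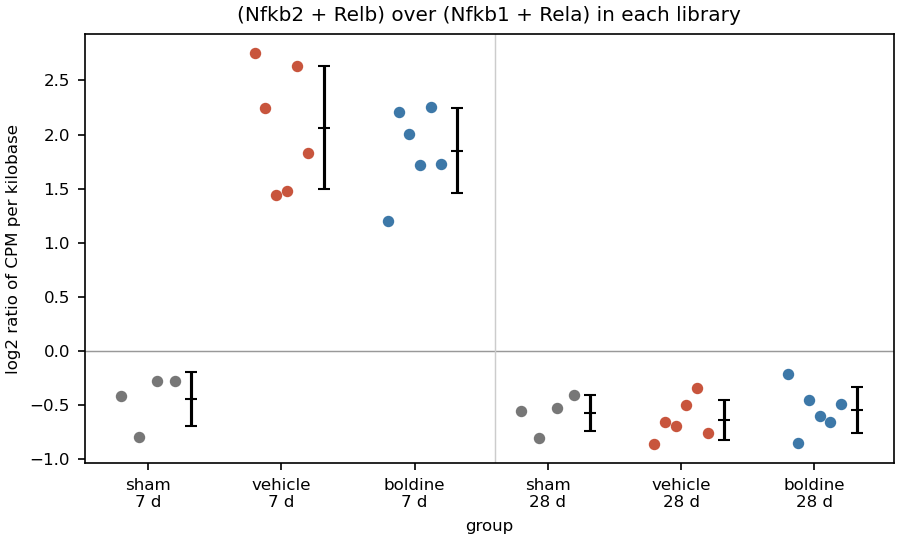
Log2 of the ratio of Nfkb2 plus Relb to Nfkb1 plus Rela, in CPM per kilobase of exon, in each library (points), with group mean and SD (bars). The 12 injured libraries at 7 days are above 0 and the other 20 libraries are below it.

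Among the inhibitors, Nfkbie (chr17:45555703-45563169, plus strand), which encodes IkappaB epsilon, had the largest fold change of the 9 members at 7 days. It was barely counted in sham, at 0.318, 0.457, 0.351 and 0.908 CPM, which rest on 3 to 10 counts per library. Nfkbie passed the filter on low counts only through the injured libraries of 7 days, so it was tested because it was high there. The SCI vehicle libraries read 14.1, 7.49, 2.43, 1.30, 11.4 and 3.00 CPM, from 14 to 200 counts. All 6 were above the highest sham value, but they spread over a 10.8-fold range, with libraries 1, 2 and 5 again highest. Nfkbie rose by a log2 fold change of 3.67 ± 0.63 (SE), with a 95% interval from 2.38 to 4.96 and an edgeR adjusted p of 1.54e-05.

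Nfkbia (chr12:55489410-55492647, minus strand) encodes IkappaB alpha, the classical rapid-feedback inhibitor. It read 13.7, 22.8, 16.4 and 19.7 CPM in sham and 17.3 to 39.3 CPM, with a median of 26.2, in SCI vehicle. The ranges overlapped, and 5 of 6 injured libraries were above the sham median. The log2 fold change was 0.56 ± 0.23 (SE), with an edgeR adjusted p of 0.0476, which is just under the threshold. The call ended with robust dispersion (adjusted p 0.0658), in a fit of the 7-day libraries alone (0.0531) and with limma voom (0.0901). It also ended without sham library 1, 3 or 4 and without SCI vehicle library 1, 2 or 5, where the highest adjusted p was 0.162, without sham library 1. Per kilobase of all annotated exons joined, Nfkbia was the highest of the 9 genes in sham, at 11.3 ± 2.5 CPM (SD, n = 4).

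Bcl3 (chr7:19808462-19822770, minus strand), a nuclear IkappaB family member that binds homodimers of the processed Nfkb1 and Nfkb2 products, was low in all groups. It read 0.106, 0.685, 1.14 and 0.908 CPM in sham and 0.419 to 3.99 CPM, with a median of 1.29, in SCI vehicle. The groups overlapped, and library 5 alone was above 2 CPM. The log2 difference was 1.07 ± 0.58 (SE), with a 95% interval from -0.11 to 2.25, and it missed the threshold with an edgeR adjusted p of 0.134. With library totals the difference was 1.51 and the gene was called (adjusted p 0.0317).

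Upstream of the subunits, Map3k14 (chr11:103219762-103267472, minus strand), which encodes NIK, followed the same order of libraries as Nfkb2. It read 8.92, 6.85, 6.14 and 7.63 CPM in sham. The SCI vehicle libraries read 71.7, 60.1, 17.1, 17.3, 69.9 and 23.5 CPM. All 6 were above sham, and libraries 1, 2 and 5 were more than 2.5 times the next. Map3k14 rose by a log2 fold change of 2.56 ± 0.36 (SE), or 5.88-fold, with an edgeR adjusted p of 6.39e-07.

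Tnfrsf12a (chr17:23675445-23677468, minus strand) encodes Fn14, the receptor for the cytokine TWEAK. It read 8.81, 12.7, 8.24 and 12.7 CPM in sham and 21.8, 36.4, 13.1, 13.6, 15.8 and 16.9 CPM in SCI vehicle. The groups did not overlap, though the lowest injured library was just above the highest sham library. The log2 fold change was 0.89 ± 0.31 (SE), with an edgeR adjusted p of 0.0199. The call ended without sham library 1 (adjusted p 0.0623), sham library 3 (0.0707) or SCI vehicle library 2 (0.0813), and the log2 fold change without that last library was 0.63. Its ligand gene Tnfsf12, named here after its values were seen, read 1.53 ± 0.50 CPM (SD, n = 4) in sham and 1.31 ± 0.47 (SD, n = 6) in SCI vehicle, with a log2 difference of -0.24 ± 0.30 (SE) and an edgeR adjusted p of 0.548. Of the 1515 exonic bases of Tnfsf12, 731 are shared with Tnfsfm13 on the same strand. How reads in that stretch were counted is not given, so the level of Tnfsf12 may be understated.

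The injured libraries at 7 days could be ordered by several members at once. In SCI vehicle muscle, libraries 1, 2 and 5 were the 3 highest for Nfkb2, Relb, Nfkbie and Map3k14, and the lowest of these 3 was 1.95 to 2.56 times the highest of the other 3. Rela had the same 3 libraries on top, but with a step of only 1.18 times. In SCI boldine muscle, libraries 2, 3 and 5 were the 3 highest for Nfkb2, Relb, Nfkbie and Map3k14. The same step was 1.14, 1.20, 2.09 and 1.29 times.

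Other measures moved with that order. The summed level of the 10 muscle-fibre markers in SCI vehicle libraries 1 to 6 was 80500, 70800, 148000, 136000, 79900 and 118000 CPM, lowest in libraries 1, 2 and 5. In SCI boldine libraries 1 to 6 it was 126000, 77300, 73900, 104000, 73400 and 120000 CPM, lowest in libraries 2, 3 and 5. The TMM factors of SCI vehicle libraries 1, 2 and 5 were 1.28, 1.30 and 1.32, against 1.04 to 1.16 in the other 3. The part of these measures in the order of the NF-kappaB genes was not tested.

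**Figure D3:**
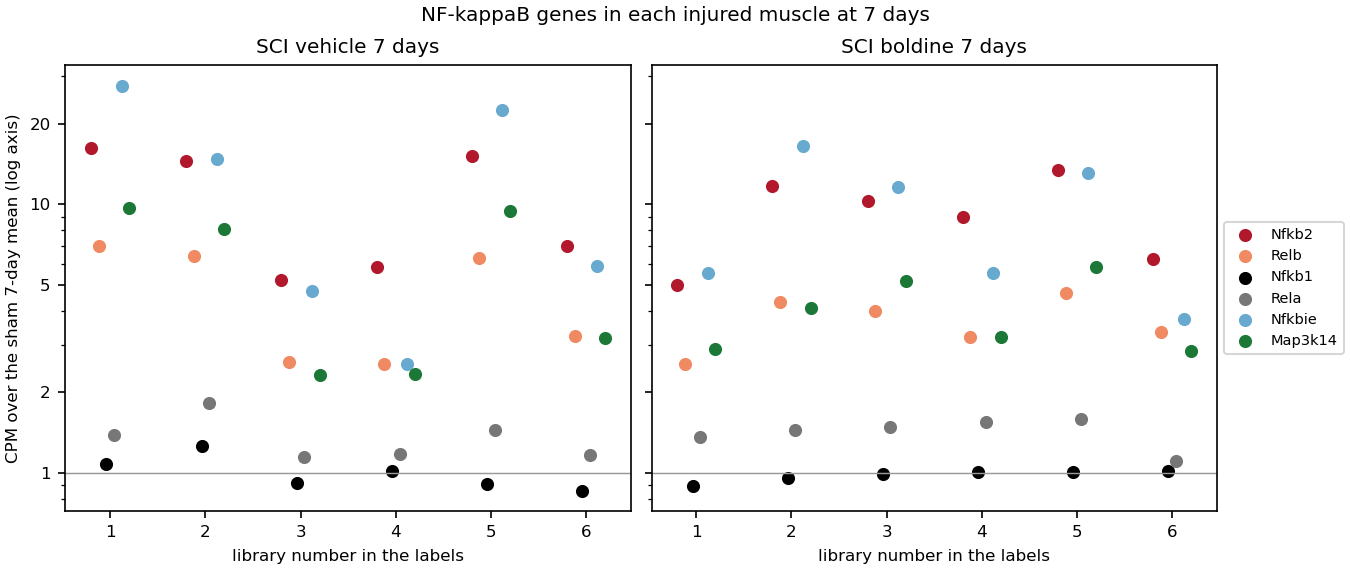
CPM of 6 members in each injured library at 7 days divided by the mean of the 4 sham libraries of that day (log axis, 1 marks the sham mean), by library number. Nfkb2, Relb, Nfkbie and Map3k14 move up and down together between libraries, while Nfkb1 stays near 1 and Rela below 2.

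Markers of immune and other cell types were summed as a check of what the muscles held. For the counts called below, 44.6% of all genes were called in SCI vehicle against sham at 7 days, 21.5% higher and 23.1% lower. With library totals, 7107 of 14955 genes were higher and 1362 lower. At 7 days the summed level of 10 B and T lymphocyte markers was 1.71 to 3.59 CPM in sham and 0.387 to 1.10 CPM in SCI vehicle, and none of the 10 passed the filter. The 5 neutrophil markers summed to 0.228 to 5.26 CPM in sham and 0.0646 to 1.12 CPM in SCI vehicle, with Ly6g at 0 in every library of both groups, and 1 of 2 tested was called lower, but not with library totals. The 11 macrophage markers summed to 57.2 to 95.9 CPM in sham and 42.0 to 75.2 CPM in SCI vehicle, and 1 of the 10 tested, Cd68, was called, as higher. The 6 dendritic cell markers summed to 7.08 to 9.55 and 8.82 to 16.1 CPM, with Zbtb46, the 1 of them tested, called higher. Summed satellite cell markers were 27.2 to 41.0 CPM in sham and 52.8 to 64.6 CPM in SCI vehicle, where 2 of 5 tested were called higher and 1 lower, the latter not with library totals. Of the muscle-fibre markers, 7 of 10 were called lower and 1 higher. Endothelial markers summed to 183 to 264 CPM in sham and 143 to 180 CPM in SCI vehicle, with 6 of 8 lower and 1 higher (2 lower with library totals). Fibro-adipogenic progenitor markers summed to 226 to 403 and 171 to 258 CPM, with 5 of 8 lower (2 with library totals). Schwann cell markers summed to 54.5 to 449 and 46.3 to 96.2 CPM, with 3 of 6 lower, and red cell RNA to 119 to 261 and 108 to 240 CPM, with none of 4 called. The part of cell composition in the NF-kappaB changes was not tested.

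SCI with boldine against the same sham libraries gave the following values, which share those 4 sham libraries with the vehicle comparison. Of the 9 members, 6 were higher and 3 (Nfkb1, Nfkbia and Bcl3) were not called, where 44.2% of all genes were called and 21.7% were called higher. In 6 members every injured library was above every sham library, against 15.6% of all genes. Nfkbie, in both counts of 6, passed the filter on low counts only through the injured libraries of 7 days. Nfkb2 read 71.6, 167, 147, 128, 192 and 89.1 CPM in the 6 boldine libraries, and Relb read 28.4, 48.7, 44.7, 36.0, 52.3 and 37.4 CPM. All of these lay above sham. The edgeR log2 fold changes were 3.20 ± 0.30 (SE) for Nfkb2 (adjusted p 3.66e-10) and 1.88 ± 0.25 for Relb (adjusted p 1.57e-07).

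The other called members in that comparison were Rela, Nfkbie, Map3k14 and Tnfrsf12a. Rela read 19.9 to 28.5 CPM, with a median of 26.2, and had a log2 fold change of 0.51 ± 0.13 (SE) and an edgeR adjusted p of 0.00138. Nfkbie read 1.91 to 8.37 CPM, with a median of 4.37, and had a log2 fold change of 3.18 ± 0.64 (SE) and an edgeR adjusted p of 1.16e-04. Map3k14 read 21.4, 30.5, 38.3, 23.7, 43.2 and 21.1 CPM, and had a log2 fold change of 2.01 ± 0.36 (SE) and an edgeR adjusted p of 2.16e-05. These libraries all lay above the sham range. Tnfrsf12a read 16.3 to 33.4 CPM, with a median of 23.4, and had a log2 fold change of 1.20 ± 0.31 (SE) and an edgeR adjusted p of 0.00206. Nfkb1 read 24.3 to 27.7 CPM and had a log2 difference of -0.03 (adjusted p 0.838), which was 0.42 and called with library totals (adjusted p 0.00287). Nfkbia read 12.7 to 29.9 CPM, with a log2 difference of 0.26 and an edgeR adjusted p of 0.391, and was called with library totals (adjusted p 0.0133). Bcl3 read 0.578 to 4.34 CPM, with a log2 difference of 1.24 ± 0.57 (SE) and an edgeR adjusted p of 0.0788. It was called without boldine library 1 or 4, where its lowest adjusted p was 0.0413, and with library totals (adjusted p 0.0131).

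**Figure D4:**
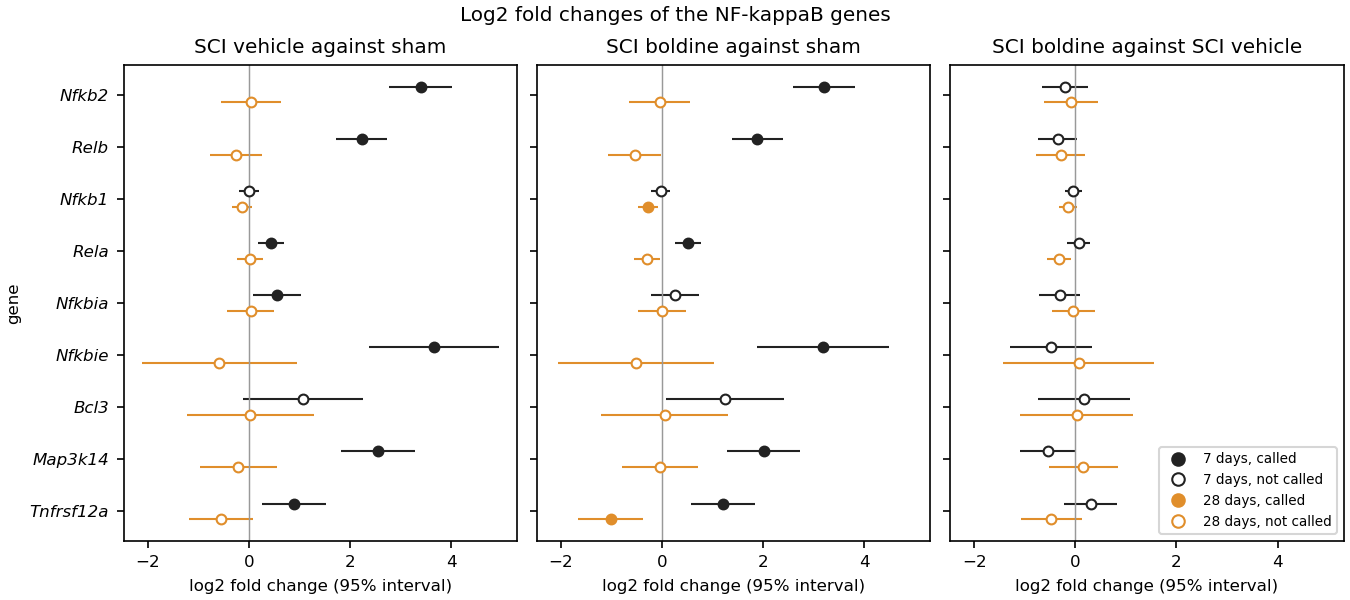
Log2 fold changes of the 9 genes in edgeR with 95% intervals, at 7 and 28 days, for SCI vehicle against sham, SCI boldine against sham and SCI boldine against SCI vehicle (filled points, adjusted p under 0.05). In the panel of boldine against vehicle no point is filled at either day, and the intervals of Nfkbie and Bcl3 are the widest.

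Boldine against vehicle in injured muscle is the comparison that bears on the treatment. At 7 days none of the 9 members was called by edgeR, DESeq2 or limma voom, and none had an unadjusted edgeR p under 0.05. Over all 14955 genes, edgeR called 0.0334%. DESeq2 called 40 higher and 59 lower, and limma voom 3 higher and 1 lower. The median log2 difference was -0.20 over the members and -0.00402 over all genes. The ranges of the 2 groups overlapped for every member.

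The intervals at 7 days say how large a boldine difference the fit allows, with a spread per gene that is shared by all 6 groups. For Nfkb2 the SD was 48.3% of the mean in vehicle and 34.7% in boldine at 7 days. At 28 days it was 12.5% and 15.3%. For a gene with such unequal spreads the 7-day interval may be too narrow, so larger differences are possible. For Nfkb2 the log2 difference was -0.20, with a 95% interval from -0.66 to 0.26. For Relb it was -0.35 (-0.74 to 0.04), with an unadjusted edgeR p of 0.0788, and the highest boldine library, at 52.3 CPM, was below the median of the vehicle libraries, 53.5 CPM. Map3k14 had the lowest p of the 9, with a log2 difference of -0.54 (-1.09 to 0.0044), an unadjusted edgeR p of 0.0518 and an adjusted p of 0.524. Its boldine libraries lay between 21.1 and 43.2 CPM and its vehicle libraries between 17.1 and 71.7 CPM, so that the boldine values lay within the vehicle range. The intervals of Nfkb1 (-0.21 to 0.13) and Rela (-0.15 to 0.29) were the narrowest. Those of Nfkbia (-0.71 to 0.10), Tnfrsf12a (-0.21 to 0.83), Nfkbie (-1.30 to 0.33) and Bcl3 (-0.74 to 1.07) were wider. The spread of the groups differed as well, with a SD of 73.5 CPM for vehicle and 45.9 CPM for boldine in Nfkb2, and 23.5 and 8.91 CPM in Relb. That difference in spread was not tested.

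Before the 28-day values, a split among the libraries has to be stated. Hipk2 and A630019I02Rik, named here because they part the libraries, were low in all 4 sham and in SCI vehicle libraries 1 to 4 at 28 days, with Hipk2 at 4.98 to 21.8 CPM, against 47.0 to 119 CPM in the other 24 libraries. No label names such a set, and it coincides with the treatment for all 28-day sham and boldine libraries, while SCI vehicle at 28 days holds libraries of both kinds, with libraries 1 to 4 in the low set and 5 and 6 outside it. A term for the set therefore rests on those 6 libraries at 28 days. In addition, the library titled SCI boldine 28 days number 6 carries a description code of the vehicle series of that day. It was used as titled.

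At 28 days, SCI vehicle muscle no longer differed from sham in any member by the test. None of the 9 was called by edgeR, DESeq2 or limma voom, and none had an unadjusted edgeR p under 0.05. Over all 14955 genes, edgeR called 8.93%. DESeq2 called 769 higher and 804 lower, and limma voom 856 higher and 1115 lower. The median log2 difference was -0.14 over the members and 0 over all genes. Nfkb2 read 16.6, 14.1, 13.6 and 15.6 CPM in sham and 12.8 to 18.2 CPM, with a median of 15.3, in SCI vehicle, a log2 difference of 0.04 with a 95% interval from -0.56 to 0.63. Relb read 10.7, 9.85, 11.8 and 11.3 CPM in sham and 7.06 to 10.6 CPM, with a median of 9.87, in SCI vehicle, a log2 difference of -0.25 (-0.76 to 0.27). Both ranges overlapped, and all 6 SCI vehicle libraries of Relb were below the sham median. These intervals use a spread shared with the 7-day groups. For Nfkb2 the SD was 9.28% of the mean in sham and 12.5% in SCI vehicle, against 48.3% in SCI vehicle at 7 days. Its interval may therefore be wider than the 28-day libraries alone would give. Neither Nfkb2 nor Relb was called in a fit of those libraries alone.

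The remaining members at 28 days were not called either. Map3k14 read 5.75 to 10.1 CPM in sham and 5.45 to 8.63 in SCI vehicle, with a log2 difference of -0.20 (-0.96 to 0.55). Tnfrsf12a read 8.17 to 19.4 and 4.73 to 19.9 CPM, with a log2 difference of -0.54 (-1.17 to 0.09) and the lowest adjusted p of the 9 in edgeR, 0.305. The ranges overlapped in both genes. Nfkb1, Rela and Nfkbia had log2 differences of -0.14, 0.02 and 0.04, and intervals no wider than -0.44 to 0.51. Nfkbie and Bcl3, which were under 1.3 CPM in every library of these groups, had differences of -0.58 (-2.12 to 0.95) and 0.03 (-1.23 to 1.29).

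The change of the SCI effect between the days was tested directly, as the difference of SCI vehicle from sham at 28 days minus that at 7 days. Of the 9 members, the effect fell in 5, with 5 lower, 0 higher and 4 not called, where 23.9% of all genes were called and 12.3% were called lower. The median was -1.44 over the members and 0.03 over all genes. The edgeR differences were -3.37 ± 0.41 (SE) for Nfkb2 (adjusted p 5.71e-07), -2.48 ± 0.35 for Relb (5.50e-06), -2.76 ± 0.51 for Map3k14 (1.80e-04), -4.25 ± 1.02 for Nfkbie (0.00234) and -1.44 ± 0.44 for Tnfrsf12a (0.0156). These 5 stayed called without any 1 library. Nfkbie, however, was tested because it was high in the injured libraries of 7 days, so its fall from 7 to 28 days is no independent result. Rela, at -0.42 ± 0.18, missed the threshold with an edgeR adjusted p of 0.0839 and passed it without SCI vehicle library 3 of 7 days (0.0459). Nfkb1 (-0.15), Nfkbia (-0.53) and Bcl3 (-1.05) were not called, and with library totals, where the median of all genes was -0.46, Nfkb1, Rela and Nfkbia were called as well.

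Against sham, SCI boldine muscle at 28 days had 2 members lower, Nfkb1 and Tnfrsf12a, where 18.1% of all genes were called and 9.35% were called lower. In 2 members, Nfkb1 and Relb, every boldine library was below every sham library, as in 8.43% of all genes. Nfkb1 read 28.3 to 29.9 CPM in the 4 sham libraries and 20.8 to 27.6 CPM, with a median of 24.3, in the 6 boldine libraries. Its log2 fold change was -0.28 ± 0.10 (SE), with an edgeR adjusted p of 0.0392. The call ended in 5 of 10 alternatives and without any 1 of the 4 sham libraries or of boldine libraries 2, 3 and 6, where the highest adjusted p was 0.0932. With a term for the library sets the difference was -0.10 (adjusted p 0.832).

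Tnfrsf12a at 28 days read 19.4, 14.7, 16.0 and 8.17 CPM in sham and 4.27 to 10.8 CPM, with a median of 6.54, in SCI boldine. The ranges overlapped through sham library 4. The log2 fold change was -1.01 ± 0.32 (SE), with an edgeR adjusted p of 0.0232. The call ended without sham library 1, 2 or 3 or boldine library 1 or 6, where the highest adjusted p was 0.101, and with a term for the library sets, where the log2 difference was -0.55 (adjusted p 0.713). Relb read 4.74 to 9.34 CPM in boldine, with a log2 difference of -0.54 and an edgeR adjusted p of 0.153, and it was called in a fit of the 28-day libraries alone (adjusted p 0.0213). Rela read 18.3 to 22.4 CPM in sham and 13.5 to 18.3 CPM in boldine, with a log2 difference of -0.30 (adjusted p 0.103), and was called with limma voom (adjusted p 0.0486). With a term for the library sets it was at 0.084 (adjusted p 0.902). The differences of Nfkb2 (-0.05), Nfkbia (-0.0002), Map3k14 (-0.04), Nfkbie (-0.52) and Bcl3 (0.05) were not called.

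Boldine against vehicle at 28 days gave no called member in edgeR, DESeq2 or limma voom. Over all 14955 genes, edgeR called 0.0201%. DESeq2 called 46 higher and 10 lower, and limma voom 233 higher and 101 lower. One member, Rela, had an unadjusted edgeR p under 0.05 (0.00927), with an adjusted p of 0.301. Rela read 14.4 to 23.3 CPM, with a median of 21.5, in vehicle and 13.5 to 18.3 CPM, with a median of 17.4, in boldine, a log2 difference of -0.32 with a 95% interval from -0.55 to -0.08. With a term for the library sets it was -0.05. All 6 boldine libraries were below the vehicle median, while the ranges overlapped. The intervals were -0.62 to 0.45 for Nfkb2, -0.77 to 0.19 for Relb, -0.32 to 0.04 for Nfkb1, -0.46 to 0.39 for Nfkbia, -0.53 to 0.84 for Map3k14 and -1.08 to 0.13 for Tnfrsf12a. Nfkbie (-1.43 to 1.56) and Bcl3 (-1.09 to 1.14) were the least well determined, and boldine library 1 had 0 counts of Nfkbie, where 3 counts would be 0.248 CPM. The change of the boldine effect between the days was called for none of the 9 by edgeR, DESeq2 or limma voom, with 1 unadjusted edgeR p under 0.05 (Rela, -0.39, p 0.0204). Over all genes, edgeR called 0.00669%. DESeq2 called 22 higher and 15 lower, and limma voom 2 higher and 0 lower.

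Outside the 9 members, 83 genes of the pathway were listed by role, also with earlier results of these data known, and 63 of them were tested. At 7 days, 23 were higher and 8 lower in SCI vehicle than in sham, with a median log2 fold change of 0.23 against -0.02 over all genes, of which 21.5% were higher and 23.1% lower. Of the 31 calls, 27 held without any 1 library, and each gene named from these lists for 7 days is among them or was not called.

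Among the receptors, 6 of 8 tested were higher and none was lower. Eda2r, a receptor of the ectodysplasin family, read 32.1 ± 7.5 CPM (SD, n = 4) in sham and 193 ± 81.3 (SD, n = 6) in SCI vehicle, a log2 fold change of 2.59 ± 0.23 (SE; edgeR adjusted p 1.06e-10). Tlr2, a Toll-like receptor, went from 0.891 to 12.5 CPM (3.78 ± 0.48; edgeR adjusted p 1.13e-07), and Ltbr, the lymphotoxin beta receptor, from 17.7 to 30.2 CPM (0.77 ± 0.13; edgeR adjusted p 1.21e-05). The sham level of Tlr2 rests on few counts, since 3 counts would be 0.233 to 0.301 CPM in those libraries. Of the 11 ligand genes 4 passed the filter and none was called by edgeR, with none called under library totals either. The most highly expressed of them, Eda, read 2.01 ± 0.32 CPM (SD, n = 4) in sham and 2.34 ± 0.79 (SD, n = 6) in SCI vehicle.

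Among the 16 adaptors and regulators of NIK turnover, all tested, 6 were higher and none lower, beside 21.5% and 23.1% of all genes. With library totals 13 were higher, under a scaling in which 7107 of all 14955 genes were higher. Birc3, a ubiquitin ligase of the complex that keeps NIK low, read 5.64 ± 1.15 CPM (SD, n = 4) in sham and 35.1 ± 20.6 (SD, n = 6) in SCI vehicle, a log2 fold change of 2.64 ± 0.36 (SE; edgeR adjusted p 3.27e-07). Traf3, the adaptor that brings NIK to that complex, went from 28.3 to 54.1 CPM (0.93 ± 0.17; edgeR adjusted p 3.41e-05). Irak1, a kinase of the Toll-like receptor route, rose from 49.2 to 74.3 CPM (0.60 ± 0.07; edgeR adjusted p 2.81e-08). Of 9 kinases and partners of the IkappaB kinase step, 3 were higher and 2 lower. Ikbkg, the scaffold of the IkappaB kinase complex, rose by 0.37 ± 0.09 (SE; edgeR adjusted p 0.00127), though it shares 418 exonic bases with G6pdx. Tab2 had a log2 fold change of -0.62 ± 0.10 (adjusted p 8.06e-06) and Tab1 of -0.43 ± 0.12 (adjusted p 0.00429), both partners of the kinase TAK1. With library totals Tab1 was at -0.04 and not called.

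Inhibitors outside the 9 were partly called. Of the other Rel and IkappaB family genes, 1 of 3 tested was higher, Nfkbib, which encodes IkappaB beta, at 21.6 ± 1.7 CPM (SD, n = 4) in sham and 56.9 ± 12.4 (SD, n = 6) in SCI vehicle (log2 fold change 1.40 ± 0.14, SE; edgeR adjusted p 7.58e-10). Nfkbib shares 314 exonic bases with Ccer2 and 42 with Sirt2. Of 8 feedback inhibitors, 5 were higher and 1 lower. They included the deubiquitinase Cyld (1.10 ± 0.13; edgeR adjusted p 5.83e-08) and the A20-binding proteins Tnip1 (1.39 ± 0.22; 5.74e-06) and Tnip2 (0.98 ± 0.18; 5.92e-05).

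For the genes listed here as canonical NF-kappaB targets, the share called was near that of all genes. That list leaves out the members, several of which are known targets themselves, so it does not stand for all known targets. Of 20 canonical target genes, 14 were tested, 2 were higher and 4 lower, with a median of -0.12, beside 44.6% of all genes called in either direction. With library totals 4 were higher and 2 lower. Cxcl10, a chemokine, read 0.667 ± 0.423 CPM (SD, n = 4) in sham and 10.7 ± 7.5 (SD, n = 6) in SCI vehicle (log2 fold change 3.96 ± 0.54, SE; edgeR adjusted p 3.38e-07). Its sham level rests on few counts, since 3 counts would be 0.233 to 0.301 CPM in those libraries. Cxcl10 shares 133 exonic bases with Art3, a gene on the other strand. Sod2, the mitochondrial superoxide dismutase, fell from 292 to 160 CPM (-0.87 ± 0.06; edgeR adjusted p 2.23e-12), and Gadd45b, a stress-induced regulator of kinase signalling, fell from 22.4 to 6.91 CPM (-1.69 ± 0.25; edgeR adjusted p 1.98e-06). Of the 5 non-canonical target genes, all lymphoid chemokines or an addressin, 1 was tested. It was Cxcl12, which fell from 77.8 to 38.6 CPM (-1.01 ± 0.16; edgeR adjusted p 2.95e-06).

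**Figure D5:**
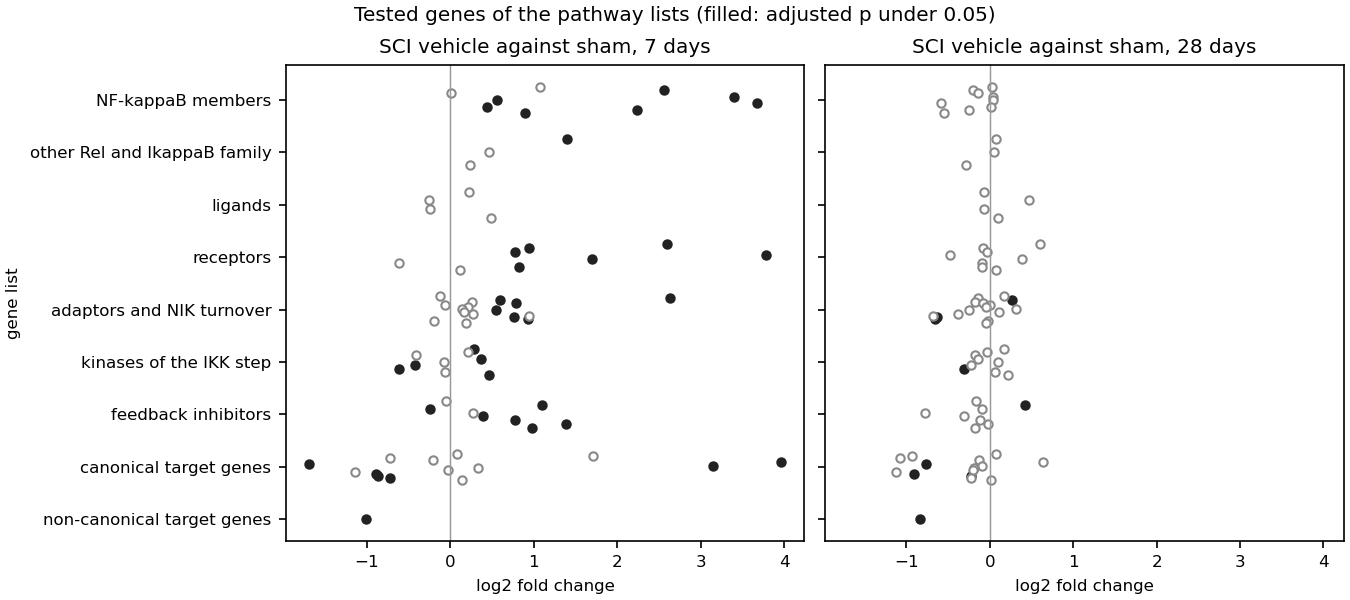
Log2 fold changes of SCI vehicle against sham for every tested gene of the members and of 8 other pathway lists, at 7 and 28 days (filled points, edgeR adjusted p under 0.05). At 7 days the filled points of receptors and adaptors are to the right of 0, while those of the canonical target genes are on both sides.

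By 28 days, 2 of the 63 other pathway genes were higher and 7 lower in SCI vehicle than in sham, beside 4.05% and 4.88% of all genes, and 1 of these 9 calls, Cxcl12, held without any 1 library. Cxcl12 read 102 ± 12.5 CPM (SD, n = 4) in sham and 56.8 ± 4.4 (SD, n = 6) in SCI vehicle (log2 fold change -0.84 ± 0.16, SE; edgeR adjusted p 5.01e-04). Traf3, which was higher than sham at 7 days, was lower at 28 days (28.7 to 18.2 CPM; -0.66 ± 0.17; edgeR adjusted p 0.0123), as was Traf2 (23.8 to 15.4 CPM; -0.63 ± 0.17; edgeR adjusted p 0.0175). Both calls ended without sham library 3, and that of Traf2 also without sham library 1, where the highest adjusted p were 0.0731 and 0.0729. Nos2, Sod2 and Gadd45b were lower by -0.91, -0.22 and -0.76 and Tab2 by -0.31, and Irak1 and Cyld were higher by 0.26 and 0.42, with edgeR adjusted p from 0.0138 to 0.0499. The call of each of these 6 ended without at least 1 library (highest adjusted p 0.148), and those of Irak1 and Cyld also with library totals. In SCI vehicle against sham at 28 days no receptor, ligand or other IkappaB gene was called, Eda2r at 0.60 (edgeR adjusted p 0.0856) being the closest. Between boldine and vehicle, none of the 63 was called by edgeR at either day, with 6 unadjusted p under 0.05 at each. Over all 14955 genes, 1434 at 7 days and 1430 at 28 days had one.

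The genes whose levels ran most like those of Nfkb2 and Relb were found over all 32 libraries, among 8988 other genes, by the Pearson correlation of log2 CPM. For Nfkb2 they were Ampd3 (r = 0.988), Psmd2 (0.987), Dnajc2 (0.986), Nol3 (0.985) and Nabp1 (0.984). For Relb they were Vac14 (0.976), Birc3 (0.973), Psmd2 (0.970), Mvp (0.966) and Zpr1 (0.966). Relb stood at place 72 for Nfkb2, and Nfkb2 at place 9 for Relb, with r = 0.964. These values include the contrast between the 12 injured libraries at 7 days and the other 20, and the genes share each library's depth and scaling. Nol3 shares 1531 exonic bases with 4931428F04Rik, and Ampd3 shares 195 with Rnf141, both on the other strand. On deviations from the 6 group means, r was 0.843 for Ampd3, 0.816 for Psmd2, 0.790 for Dnajc2, 0.775 for Nol3 and 0.842 for Nabp1 with Nfkb2, and 0.778, 0.844, 0.813, 0.712 and 0.669 for the 5 genes with Relb. Nfkb2 and Relb had 0.750 with each other. Nabp1 read 28.8 CPM in sham and 266 CPM in SCI vehicle at 7 days, and Ampd3 read 12.6 and 93.3 CPM, both back at 26.4 and 12.4 CPM in SCI vehicle at 28 days.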

How the data were processed

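mRNA libraries of the gastrocnemius were made from total RNA with a NEBNext Ultra kit, per the labels' protocols. FastQC, Trim Galore, cutadapt and STAR and the build mm10 are named in the submitters' processing notes. For the counting step, its annotation and its use of strand, nothing is stated in the sources used here. The deposited table holds raw counts per gene as the authors made them, 1 column for each of the 32 libraries, and no normalized unit.

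Of the 55487 identifiers, 55141 were named from GENCODE M21 and RefSeq, 107 were set aside because they share a symbol, and 25611 had no count in any library. Unnamed identifiers held 0.0256% of counts. No 2 libraries were identical. Exon lengths and coordinates are from GENCODE M21 (mm10), and promoter sequences are from RefSeq (GRCm38.p6). Relb and Nfkb1 were not among the promoters used.

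Genes were kept by edgeR's filter (minimum count 10, minimum total 15), scaled by TMM and fitted with 1 mean for each of the 6 groups and no block (edgeR 4.0.16, R 4.3.3). Standard errors are the log2 fold change over the root of F, and intervals are 95%. Alternatives were RLE factors, library totals, no filter or a stricter one (1 CPM in 6 libraries), robust dispersion, same-day fits, a replicate block, a term for the library sets, DESeq2 1.42.0, limma voom with quality weights (limma 3.58.1) and leaving out each library. Log2 CPM used a prior count of 2. Counting limits cover counting error only, since no molecular identifiers are named. On simulated counts for SCI vehicle against sham at 7 days over 14955 genes, 80% of 100 genes changed 2-fold and 91% of 100 changed 4-fold were called, with 12 calls among 14755 unchanged genes. Only those few genes were changed in the simulation, while 44.6% of all genes were called in the data, so these rates need not hold there.

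The members and gene lists were chosen with earlier results of these data known. Every member is named in each comparison. From each other list, the called genes with the smallest p against sham are named, up to 3 per day, and the most expressed gene where none was called.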

Additional observations from a re-analysis of the deposited data

Results flagged for a closer look

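The SCI effect on 5 members differed between the days by edgeR's test of the difference, lower at 28 than at 7 days by a log2 value of -3.37 in Nfkb2, -2.48 in Relb, -2.76 in Map3k14, -4.25 in Nfkbie and -1.44 in Tnfrsf12a. The adjusted p were 5.71e-07, 5.50e-06, 1.80e-04, 0.00234 and 0.0156. Nfkbie was tested because it was high in the injured libraries of 7 days, so its fall is no independent result.

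In 3 of 54 groups of libraries, 1 library stood apart from the rest by Dixon's test, which chance alone does in about 1 group in 20. Bcl3 was at 3.99 CPM in SCI vehicle library 5 at 7 days. Tnfrsf12a was at 36.4 CPM in SCI vehicle library 2 at 7 days and at 19.9 CPM in SCI vehicle library 4 at 28 days.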

How the results depend on the processing

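Of 1671 values of single members compared with an alternative, 93 changed sign, 1 of them with a call on either side (Nfkb1 in SCI boldine against sham at 7 days, -0.03, and 0.42 with library totals), and none of the values that changed sign was beyond 0.30 in size before the change or beyond 0.634 after it. The counts of called members in SCI vehicle against sham and in SCI boldine against sham at 7 days, and the 0 in both boldine comparisons with vehicle, in SCI vehicle against sham at 28 days and in the day difference of boldine, stayed within 1.5 times under every alternative run. In SCI boldine against sham at 28 days, 2 called members became 1 with RLE factors, no filter, the replicate block or DESeq2, and 0 with the term for the library sets, with 0 to 2 over the fits without 1 library. In the day difference of the SCI effect, 5 became 8 with library totals. The cause of these changes was not tested, apart from the shift of all genes that library totals bring.

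The values after a sign change, none called but the one above, were as follows. With limma voom, Nfkb1 was at -0.026 (SCI vehicle against sham, 7 days) and 0.0088 (boldine against vehicle, 7 days), Bcl3 at -0.13 (SCI vehicle against sham, 28 days) and -0.098 (SCI boldine against sham, 28 days), Nfkbie at -0.22 (boldine against vehicle, 28 days), Nfkbia at 0.021 (SCI boldine against sham, 28 days) and Relb at -0.051 (day difference of boldine). With library totals, Nfkb2, Rela, Nfkbia and Bcl3 were at -0.058, -0.076, -0.062 and -0.069 (SCI vehicle against sham, 28 days), Nfkb1 at 0.011 (boldine against vehicle, 7 days) and Bcl3 at -0.033 (SCI boldine against sham, 28 days). With the term for the library sets, the 28-day boldine differences from vehicle were 0.11 in Nfkb2, 0.42 in Nfkbia and -0.31 in Nfkbie, those from sham were 0.23 in Nfkb2, 0.084 in Rela, 0.63 in Nfkbia and 0.35 in Map3k14, and Nfkb1 was at 0.017 in the day difference of boldine. Nfkbia in SCI boldine against sham at 28 days was at 0.0088 with RLE factors, 0.013 in the same-day fit and 0.0091 with DESeq2.

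With the replicate block, Bcl3 was at -0.23 (SCI vehicle against sham, 28 days) and -0.13 (SCI boldine against sham, 28 days), Nfkb1 at 0.017 (SCI boldine against sham, 7 days), and Nfkbia and Map3k14 at 0.082 and 0.021 (SCI boldine against sham, 28 days). The block ended the call of Nfkb1 in that last comparison (-0.24, adjusted p 0.0818) and changed no other call. No general pairing by number was seen. Over 72 same-numbered pairs of libraries from different groups, deviations correlated between -0.213 and 0.264 with a median of 0.00244. Of these, 3 were over 0.1, and the median was -0.0038 in 352 other pairs. The labels do not say what the numbers mean, and these values cannot exclude that some same-numbered samples share a source.

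Leaving out 1 library gave 5 to 7 called members in SCI vehicle against sham at 7 days, 6 to 7 in SCI boldine against sham at 7 days and 5 to 6 in the day difference of the SCI effect. Ranges that crossed 0 were, for SCI vehicle against sham, Nfkb1 -0.050 to 0.076 at 7 days, and Nfkb2 -0.015 to 0.092, Rela -0.030 to 0.10, Nfkbia -0.084 to 0.20 and Bcl3 -0.14 to 0.21 at 28 days. For boldine against vehicle they were Nfkb1 -0.091 to 0.034 and Bcl3 -0.38 to 0.73 at 7 days, and Nfkbia -0.17 to 0.081, Nfkbie -0.27 to 0.34 and Bcl3 -0.15 to 0.21 at 28 days. For SCI boldine against sham they were Nfkb1 -0.089 to 0.027 at 7 days, and Nfkb2 -0.12 to 0.0068, Nfkbia -0.13 to 0.16, Bcl3 -0.052 to 0.24 and Map3k14 -0.19 to 0.13 at 28 days. For the day difference of boldine they were Nfkb2 -0.023 to 0.28, Relb -0.073 to 0.21 and Bcl3 -0.70 to 0.42.

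Nfkbie was too low for the same-day fit at 28 days, and same-day fits give no difference between days. At the depth of these libraries Nfkbie in sham and both low genes at 28 days rest on few counts, so that only large differences in them were detectable.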
